A study of Mus musculus with 6 samples.

Results

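Genes that move iron into, within and out of cells were followed in hearts of tumour-bearing mice given doxorubicin (Dox), ginsenoside Rh2 or both. The 9 genes are the iron handling genes that are tied to the cardiotoxicity of doxorubicin, and they were taken by gene symbol from the 45777 genes measured. They are Tfrc and Slc11a2 for uptake, Fth1 and Ftl1 for storage, Slc40a1 for export, Hamp as the hormone that controls export, Aco1 and Ireb2 as the iron regulatory proteins, and Abcb8 as a mitochondrial transporter. All 9 were among the 18328 genes tested, which averaged 10 counts or more across the 6 libraries. The rule names genes and uses no measured value, although results of these data were known when the list was made.

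The mice were female BALB/c nude animals (CAnN.Cg-Foxn1nu/Crl), 6 weeks old, which lack a functional thymus through the Foxn1nu allele. Every mouse, those of the Control group included, carried a subcutaneous xenograft of MDA-MB-231, a human breast cancer line. Treatment began on day 7 after the tumour cells and lasted 3 weeks. The groups were Control (vehicle), Rh2-20 mg/kg and Rh2-30 mg/kg (Rh2 each day at 20 or 30 mg/kg), Dox (2 mg/kg every other day, 22 mg/kg in all), and 2 groups that received both, Rh2-20 mg/kg + Dox with the lower dose of Rh2 and Rh2-30 mg/kg + Dox with the higher. Each condition had 1 library, made from the hearts of 5 mice pooled before sequencing, so no condition has a spread between animals and a comparison of 2 libraries has no replicate check. In pooled whole hearts, fewer cells of a type and less RNA per cell cannot be told apart.

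Cells take up transferrin-bound iron through the transferrin receptor, move it into the cytosol through the transporter DMT1, keep the excess inside ferritin shells of heavy and light chains, and release it through ferroportin, which circulating hepcidin removes from the membrane. When iron is scarce, the iron regulatory proteins bind hairpins called iron responsive elements, which protects the transferrin receptor mRNA from decay and blocks translation of the ferritin and ferroportin mRNAs. In the heart, doxorubicin binds iron and is known to build up with it in mitochondria, where the inner membrane transporter ABCB8 takes part in iron export.

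The hairpins by which the iron regulatory proteins recognise these mRNAs are shown for the members in which a search of the annotated sequence found them. The untranslated regions of GENCODE M21 transcripts (GRCm38, the assembly of mm10) were searched on the transcript strand for the 6-base loop CAGTGN between 5 bases on either side that pair as A with T, G with C or G with T. Such a match was found in 4 of the 9 genes and in 2.86% of 21842 protein-coding genes. With a C just before the stem, which all 7 matches in these genes had, the share of protein-coding genes was 0.733%. The search did not check whether this C could pair. The 6 loop bases are in capitals, and elements of a gene are numbered among those found.
Slc40a1 5′ UTR: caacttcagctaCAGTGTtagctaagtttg
Fth1 5′ UTR: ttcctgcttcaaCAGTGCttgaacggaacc
Ftl1 5′ UTR: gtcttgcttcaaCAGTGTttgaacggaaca
Tfrc 3′ UTR, element 1 of 4: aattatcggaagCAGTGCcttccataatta
Tfrc 3′ UTR, element 2 of 4: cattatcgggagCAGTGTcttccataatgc
Tfrc 3′ UTR, element 3 of 4: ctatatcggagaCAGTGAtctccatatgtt
Tfrc 3′ UTR, element 4 of 4: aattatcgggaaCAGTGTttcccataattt

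The Slc40a1 element lies in exon 1 at chr1:45925464-45925493 on the minus strand, the Ftl1 element in exon 1 at chr7:45459778-45459807 on the minus strand, and the Fth1 element in exon 1 at chr19:9982732-9982761 on the plus strand. The 4 Tfrc elements found lie in exon 19 on the plus strand, from chr16:32631219-32631248 to chr16:32631710-32631739. The search thus found 1 element before the coding sequence in both ferritin mRNAs and 4 behind it in Tfrc. The letters searched were not in the untranslated regions of Slc11a2, Aco1, Ireb2, Abcb8 and Hamp as annotated. Elements with a bulge in the upper stem, of the kind known in some transcripts of Slc11a2, are outside this search. So are elements with another loop sequence, and the number found in a gene need not be its full number. A match is a description of the sequence, and the binding of the regulatory proteins was not measured.

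The libraries held 86164411 to 90621002 counts. Cardiomyocyte markers (8 of 8 detected) summed to between 86209 and 116490 CPM (counts scaled to the size of the library), in keeping with the labelled tissue. The library of Rh2-30 mg/kg stood apart, with 1662 CPM of 4 atrial markers (45.7 to 403 CPM in the other 5), 199 CPM of 4 white fat markers (0.345 to 37.1 CPM) and 6442 counts of the brown fat gene Ucp1 (0 to 12 counts). Erythroid markers ran from 1660 CPM in Rh2-30 mg/kg + Dox to 10560 CPM in Dox. Values that touch a result are repeated beside it.

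The ferritin chains were by far the most abundant of the 9 mRNAs. Levels between genes are given as FPKM, fragments scaled to transcript length and library size, over 6 libraries that differ in treatment. Fth1 averaged 369 FPKM ± 27.5 (SD, n = 6) and Ftl1 328 FPKM ± 104, and their ranges overlapped. Tfrc (20.2 FPKM ± 3.96) and Ireb2 (18.9 FPKM ± 0.895) followed, with overlapping ranges, each below the lowest ferritin value of 205 FPKM. Aco1 (10.2 FPKM ± 1.23), Abcb8 (6.61 FPKM ± 0.701) and Slc11a2 (6.13 FPKM ± 0.598) came next, and the last of these overlapped with Abcb8. Slc40a1 had the lowest mean, 2.26 FPKM ± 0.750, with no value above the lowest of Slc11a2. Hamp had a mean of 8.17 FPKM ± 12.2 that describes no library, since it ran from 0.134 to 29.5 FPKM. It was below Slc40a1 in Control (0.272 FPKM), Rh2-20 mg/kg (0.879 FPKM) and Rh2-30 mg/kg + Dox (0.134 FPKM). The order of mean levels was the same in TPM, the deposited unit that fixes the total of each library. Because libraries were made by capture with probes, differences in capture between genes enter this order.

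**Figure D1:**
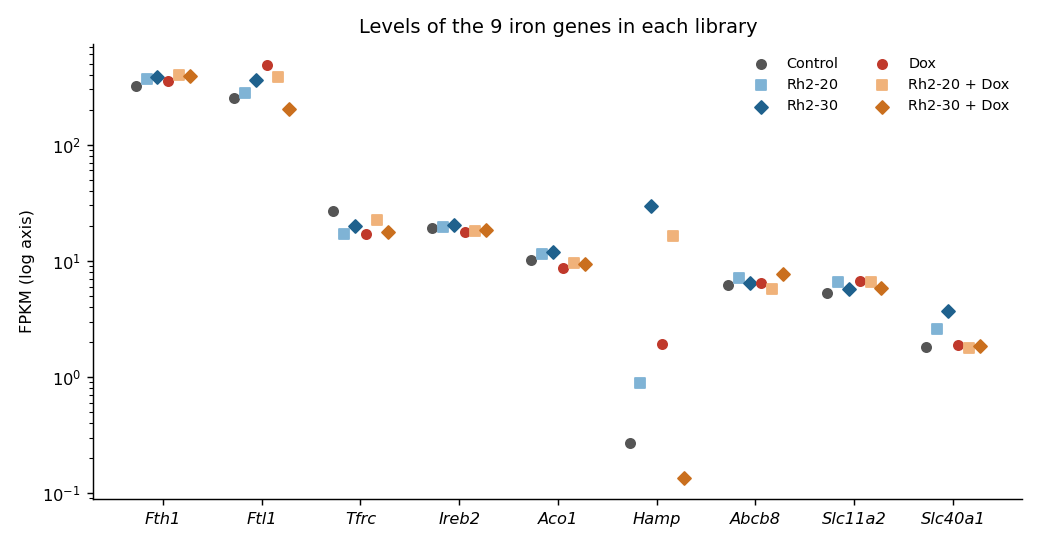
Level of each of the 9 genes in each of the 6 libraries, as FPKM on a log axis, with genes ordered by their mean level; each point is 1 library. Fth1 and Ftl1 sit above 200 FPKM in every library, and Hamp spans 0.134 to 29.5 FPKM.

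Set against the Control library, a level at least 2-fold apart was reached by Hamp alone among the 9 genes. It was 2.91-fold higher in Rh2-20 mg/kg (1 of 9 genes, against 6.11% of all genes tested), 90.4-fold higher in Rh2-30 mg/kg (background 10.1%), 6.50-fold higher in Dox (background 9.01%) and 52.8-fold higher in Rh2-20 mg/kg + Dox (background 8.76%). In Rh2-30 mg/kg + Dox none of the 9 was 2-fold from Control, where 10.9% of all genes were. With 9 genes, 1 call is close to these backgrounds and is not a result about the group. The median log2 fold of the 9 lay between -0.10 and 0.11 in the 5 comparisons, and that of all genes between -0.01 and 0.03. These comparisons share the Control library.

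**Figure D2:**
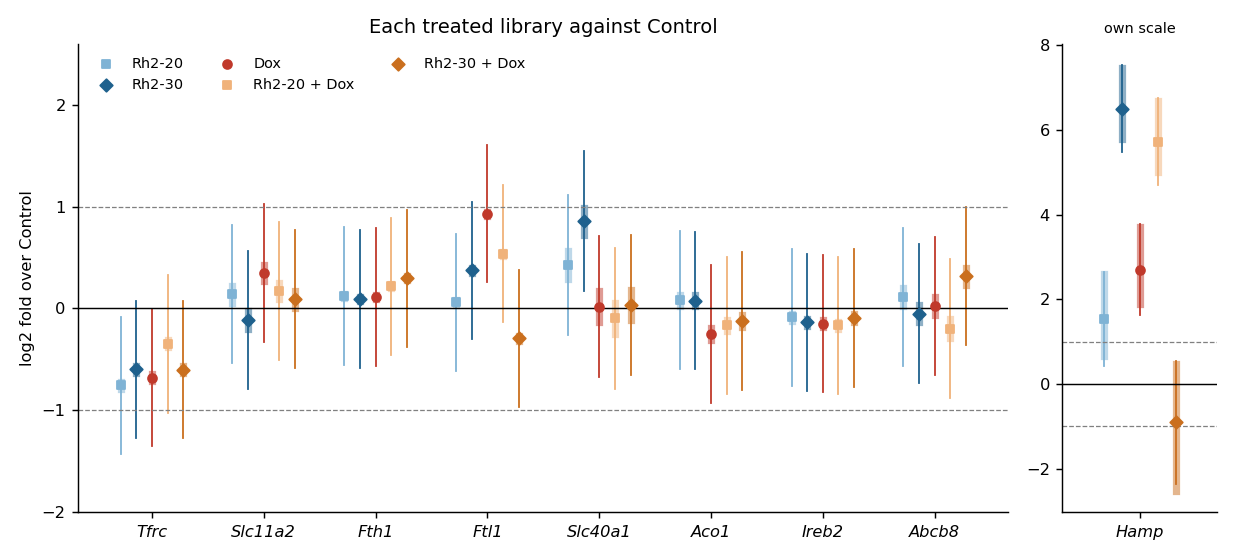
Log2 fold of each treated library over Control for the 8 other genes (left) and for Hamp on its own scale (right). Points are libraries, thick bars are 95% counting intervals, thin bars add the dispersion between libraries, and dashed lines mark a 2-fold difference; Hamp alone has points outside them.

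The 3 libraries with Dox were then compared with the 3 without, which asks for the mean shift with Dox over the 3 Rh2 doses. None of the 9 genes reached an adjusted p under 0.05 (Benjamini-Hochberg) in the quasi-likelihood test of edgeR, which 0.0273% of all genes did (5 genes). At an unadjusted p under 0.05 it was 1 of 9 (Aco1), where 10.1% of all genes were. DESeq2 called 2 members (Aco1 and Slc40a1) at that level, among 2069 of all genes. After adjustment it called 425 genes, none of them a member. For Rh2 against no Rh2, with Dox as a term, no member reached an unadjusted p under 0.05 in edgeR or DESeq2 (background 8.74%). No member separated the 4 libraries with Rh2 from the 2 without, which 9.87% of all genes did as higher and 9.08% as lower. After adjustment edgeR called 0% of all genes in this contrast, and DESeq2 242 genes. For the interaction of Dox and Rh2 it was again 1 of 9 at an unadjusted p under 0.05 (Tfrc), against 2.71% of all genes in either direction and 0.895% higher, with 0% after adjustment in edgeR and 38 genes in DESeq2, none of them a member. Libraries of a group differ in Rh2 dose, so the spread that these tests use includes any effect of dose.

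Tfrc encodes the transferrin receptor (chr16:32608896-32632794, GRCm38.p6), the entry point for transferrin-bound iron. It was highest in the Control library, at 179.5 CPM. Without Dox it was 106 CPM in Rh2-20 mg/kg and 119 CPM in Rh2-30 mg/kg, and with Dox it was 112 CPM in Dox, 141 CPM in Rh2-20 mg/kg + Dox and 118 CPM in Rh2-30 mg/kg + Dox. All 5 treated libraries were thus below the Control library, by 21.4% to 40.8%. Against Control, the log2 fold was -0.76 in Rh2-20 mg/kg (interval with dispersion -1.43 to -0.08) and -0.68 in Dox (-1.36 to -0.0048). It was -0.60 for either library given 30 mg/kg and -0.35 for Rh2-20 mg/kg + Dox, with intervals that hold 0. With the larger of the estimates of dispersion, described with the methods, none of the 5 intervals excluded 0.

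The values of Dox minus no Dox for Tfrc varied with Rh2 dose. The difference of Dox minus no Dox was -0.68 on the log2 scale without Rh2, 0.41 at Rh2 20 mg/kg and -0.002 at 30 mg/kg, so the fitted interaction was 0.89 (SE 0.23). It had an unadjusted p of 0.0132 and an adjusted p of 0.988 in edgeR's quasi-likelihood test. Over the 7 alternatives the lowest adjusted p was 0.181, in DESeq2, so this is not a call. The value rests on the single Control and Dox libraries, without either of which the interaction could not be fitted, and without Control the Dox contrast moved from -0.12 to 0.14.

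Slc11a2 encodes DMT1 (chr15:100387898-100424209), which carries ferrous iron out of endosomes and across the cell membrane. It varied little. The 3 libraries without Dox held 26.6 CPM in Control, 29.3 CPM in Rh2-20 mg/kg and 24.6 CPM in Rh2-30 mg/kg, and those with Dox 33.8 CPM in Dox, 30.0 CPM in Rh2-20 mg/kg + Dox and 28.3 CPM in Rh2-30 mg/kg + Dox. The groups overlapped, although Dox was the higher of the pair at each Rh2 dose, by 0.35, 0.03 and 0.20 on the log2 scale. In all, 3 of the 9 genes had 1 sign at the 3 doses (Slc11a2 and Fth1 higher, Aco1 lower), against 33.7% of all genes (15.9% higher and 17.8% lower). The fitted log2 difference of Slc11a2 was 0.19 (SE 0.11), with an adjusted p of 0.592 in edgeR's quasi-likelihood test.

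Fth1 encodes the ferritin heavy chain (chr19:9980600-9985111), which oxidises iron as it enters the shell. Its level was the steadier of the ferritin pair, with 410.03 CPM in Control, 446 CPM in Rh2-20 mg/kg, 437 CPM in Rh2-30 mg/kg, 443 CPM in Dox, 477 CPM in Rh2-20 mg/kg + Dox and 503 CPM in Rh2-30 mg/kg + Dox. Control was lowest and Rh2-30 mg/kg + Dox highest, a ratio of 1.23. Dox was higher than its partner at each Rh2 dose by 0.11, 0.10 and 0.20 on the log2 scale, but the groups overlapped. The fitted log2 difference was 0.14 (SE 0.092), with an adjusted p of 0.663 in edgeR's quasi-likelihood test.

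Ftl1, the ferritin light chain that helps form the iron core (chr7:45457944-45459886), varied more than its partner, over a 2.34-fold range. It held 330.3 CPM in Control, 344 CPM in Rh2-20 mg/kg and 428 CPM in Rh2-30 mg/kg. With Dox it held 629.9 CPM in Dox, 479 CPM in Rh2-20 mg/kg + Dox and 269 CPM in Rh2-30 mg/kg + Dox. Thus the Dox library was highest of the 6 and Rh2-30 mg/kg + Dox lowest, and the groups with and without Dox overlapped. The log2 fold of Dox over Control was 0.93, with a counting interval of 0.91 to 0.95 and an interval with dispersion of 0.26 to 1.61, which with the larger dispersion was -0.24 to 2.11. Relative to Dox, Rh2-30 mg/kg + Dox had a log2 fold of -1.23 (interval with dispersion -1.90 to -0.55, with the larger one -2.40 to -0.05), and Rh2-20 mg/kg + Dox one of -0.39 (-1.07 to 0.28).

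In the comparison of Rh2-30 mg/kg + Dox with Dox, Ftl1 and Hamp were the 2 of 9 genes at least 2-fold apart, both lower, against 10.1% of all genes in either direction and 7.35% lower. In that of Rh2-20 mg/kg + Dox with Dox it was 1 of 9, Hamp, against 6.49%. Over the 3 libraries each way, the log2 difference of Ftl1 was 0.32 (SE 0.29), with an adjusted p of 0.755 in edgeR's quasi-likelihood test. It was 0.59 without Rh2-30 mg/kg + Dox and 0.03 without Dox, so single libraries set its size. The ratio of heavy to light chain in FPKM was lowest in Dox at 0.724 and highest in Rh2-30 mg/kg + Dox at 1.92, while Control had 1.28, Rh2-20 mg/kg had 1.33, and the values of Rh2-30 mg/kg and of Rh2-20 mg/kg + Dox were 1.05 and 1.02. This ratio was chosen after the values were seen.

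The light chain varied alongside markers of red blood cells. Ncoa4, the receptor that delivers ferritin to lysosomes, Dcaf12 and the heme transporter Slc48a1 had the patterns nearest to Ftl1 among 13961 genes averaging 100 counts or more, with root mean square differences of 0.0895, 0.1005 and 0.103 on the centred log2 scale over 6 libraries. Erythroid markers (7 of 8 detected) summed to 3629 CPM in Control, 2620 CPM in Rh2-20 mg/kg, 3310 CPM in Rh2-30 mg/kg, 10560 CPM in Dox, 5922 CPM in Rh2-20 mg/kg + Dox and 1660 CPM in Rh2-30 mg/kg + Dox. The order from highest, Dox and then Rh2-20 mg/kg + Dox, and the lowest library were the same for these markers and for Ftl1. Alas2, the heme synthesis enzyme of erythroid cells, had 64799 counts in Dox, against 16052 in Control, and its lowest count was 4645, in Rh2-30 mg/kg + Dox, while Klf1, a transcription factor of red cell precursors, had at most 6 counts and was at 0 in 4 libraries. The part of blood cell RNA in the Ftl1 values was not tested.

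Reads of Ftl1 can be shared with near copies. The annotated transcript of Ftl1-ps1 matched that of Ftl1 at 99.6% of 910 aligned positions. Counts on this and on 2 further pseudogenes, Ftl1-ps2 and Ftl2-ps, left Ftl1 itself 92.7% to 94.7% of their sum in each library. With the pseudogene counts added, an alternative chosen after seeing the data, the log2 fold of Dox over Control was again 0.93.

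**Figure D3:**
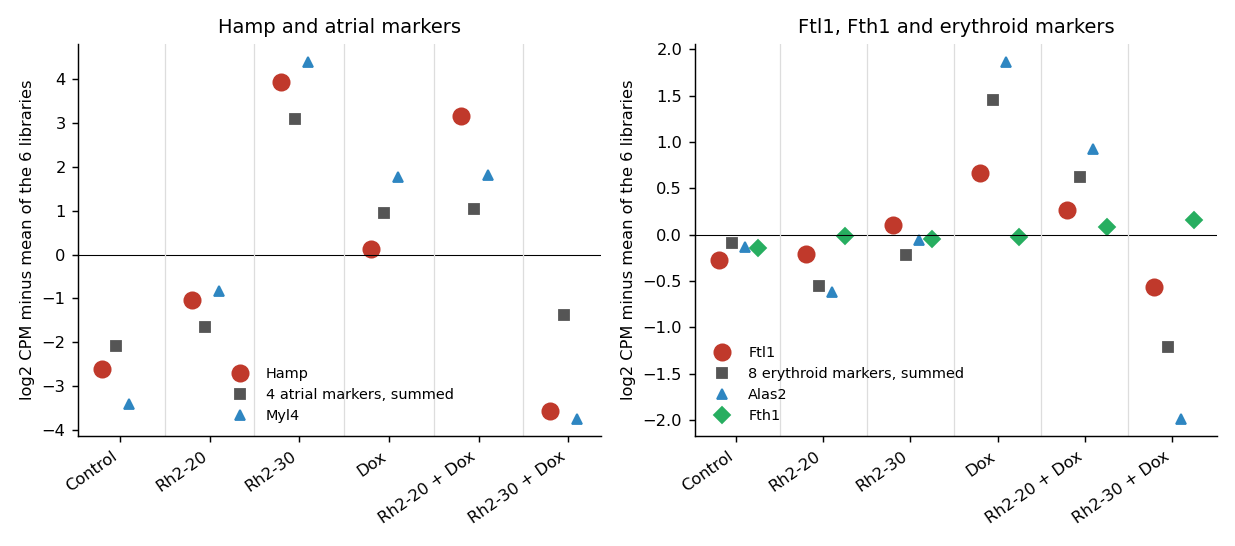
Log2 CPM in each library minus the mean of the 6 libraries, for Hamp with the summed atrial markers and Myl4 (left) and for Ftl1 and Fth1 with the summed erythroid markers and Alas2 (right). Hamp and the atrial markers peak in Rh2-30 mg/kg, and Ftl1 and the erythroid markers peak in Dox and are lowest in Rh2-30 mg/kg + Dox, while Fth1 stays near its mean.

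Slc40a1 encodes ferroportin (chr1:45908070-45926532), the exporter of iron, which in the heart is made by both muscle cells and macrophages. Its mRNA was near 8 CPM in 4 of the 6 libraries. It held 8.29 CPM in Control, 11.1 CPM in Rh2-20 mg/kg and 15.04 CPM in Rh2-30 mg/kg, so both libraries given Rh2 without Dox were higher. With Dox it held 8.39 CPM in Dox, 7.76 CPM in Rh2-20 mg/kg + Dox and 8.49 CPM in Rh2-30 mg/kg + Dox, so those given Rh2 were no higher than Dox by more than 0.02 on the log2 scale.

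Against Control, the log2 fold of Slc40a1 was 0.43 in Rh2-20 mg/kg (interval with dispersion -0.26 to 1.12) and 0.86 in Rh2-30 mg/kg (0.17 to 1.55, with the larger dispersion -0.33 to 2.04). The Dox contrast gave -0.49 (SE 0.21, adjusted p 0.501) and the interaction -0.70 (SE 0.33, adjusted p 0.988) in edgeR's quasi-likelihood test. Without the Rh2-30 mg/kg library the Dox contrast was -0.23. Macrophage markers (10 of 10 detected) summed to 333 CPM in Control, 444 CPM in Rh2-20 mg/kg, 492 CPM in Rh2-30 mg/kg, 301 CPM in Dox, 404 CPM in Rh2-20 mg/kg + Dox and 264 CPM in Rh2-30 mg/kg + Dox. The Rh2-30 mg/kg library was highest and Rh2-20 mg/kg the next for Slc40a1 and for this sum, whereas Rh2-20 mg/kg + Dox had 404 CPM of the markers with the lowest Slc40a1. Mrc1 held the largest part of the sum, from 124 CPM in Dox to 235 CPM in Rh2-30 mg/kg. Mertk and Fcgr1 were highest in Dox (56.1 and 3.27 CPM) and Lyve1 in Rh2-20 mg/kg + Dox (18.2 CPM). The other markers were highest in Rh2-30 mg/kg. The Rh2-30 mg/kg library also held 1662 CPM of atrial and 199 CPM of white fat markers, far above the others. The part of macrophage, atrial or fat tissue RNA in these values was not tested.

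Hamp encodes hepcidin (chr7:30942368-30944029), a hormone made mainly in liver and to a lesser extent in heart. It was nearly silent in some of the pools of hearts and well expressed in others. The libraries held 13 counts in Control (0.156 CPM), 42 in Rh2-20 mg/kg (0.466 CPM), 1388 in Rh2-30 mg/kg (14.6 CPM), 88 in Dox (1.05 CPM), 783 in Rh2-20 mg/kg + Dox (8.54 CPM) and 7 in Rh2-30 mg/kg + Dox (0.0805 CPM). High and low libraries thus occurred both with and without Dox, and the 30 mg/kg dose of Rh2 held both the highest and the lowest, while both libraries without Rh2 were low. The log2 fold over Control was 6.50 in Rh2-30 mg/kg (counting interval 5.77 to 7.46), 5.72 in Rh2-20 mg/kg + Dox (4.99 to 6.69), 2.70 in Dox (1.90 to 3.71) and 1.54 in Rh2-20 mg/kg (0.65 to 2.6), and in Rh2-30 mg/kg + Dox it was -0.91 with a counting interval of -2.52 to 0.48.

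Dox minus no Dox gave log2 differences of 2.70 without Rh2, 4.18 at 20 mg/kg and -7.41 at 30 mg/kg, so no common direction was seen. Between libraries of the same Rh2 dose, Hamp was the 1 of 9 genes at least 2-fold apart, against 6.96% of all genes at 20 mg/kg and 14.5% at 30 mg/kg. The Dox contrast of Hamp was -0.66 (SE 1.76, adjusted p 0.929) and the Rh2 contrast 3.33 (SE 2.24, adjusted p 0.663) in edgeR's quasi-likelihood test. Without the Rh2-30 mg/kg library the Dox contrast became 3.36, and with Rh2 dose as a block it became 1.48, neither of them past the threshold. In FPKM plus 1 the Rh2-20 mg/kg library was no longer 2-fold from Control.

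The genes nearest to Hamp in pattern were Myl4, the atrial light chain of myosin, Mlana, a gene of pigment cells, and the calcium channel Ryr3, with root mean square differences of 0.951, 1.01 and 1.03 on the centred log2 scale over 6 libraries. Atrial markers (4, of which 3 had a count in every library) summed to 45.7 CPM in Control, 62.0 CPM in Rh2-20 mg/kg, 1662 CPM in Rh2-30 mg/kg, 379 CPM in Dox, 403 CPM in Rh2-20 mg/kg + Dox and 75.3 CPM in Rh2-30 mg/kg + Dox. The atrial light chain Myl7 ran from 19 counts in Rh2-30 mg/kg + Dox to 52896 in Rh2-30 mg/kg, the libraries with the least and the most Hamp. Myl4 and Sln had their extremes in the same libraries. Nppa did not, with 36.1 CPM in Rh2-20 mg/kg, its lowest, 43.3 CPM in Control and 73.8 CPM in Rh2-30 mg/kg + Dox. At atrial sums of 403 and 379 CPM, Rh2-20 mg/kg + Dox and Dox held 8.54 and 1.05 CPM of Hamp. How much atrial tissue each pool held, and its part in the Hamp values, was not tested. Of 6 hepatocyte markers, Fgb and Apoc3 had no count in any library, Apoa1 had at most 4 counts, Alb at most 25 and Ttr at most 26, and Serpina1a had 84 to 146 counts in every library. Their sum ran from 1.39 to 1.68 CPM, and their part in the Hamp values was not tested.

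Hamp2, the neighbouring copy of the hepcidin gene, whose annotated transcript matched that of Hamp at 93.0% of 417 aligned positions, had no count in the Control library and 3 counts where Rh2 was given at 20 mg/kg. It had 37 counts in Rh2-30 mg/kg and 23 counts in Dox, and with both agents 127 counts at the lower and 19 counts at the higher Rh2 dose. It was highest in Rh2-20 mg/kg + Dox, at least 38.5-fold above the 3 counts that a count of 0 allows in the Control library. The split of reads between the 2 genes is uncertain, since it rests on how the authors' tools assigned them.

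Aco1 encodes iron regulatory protein 1, which is a cytosolic aconitase while it holds an iron-sulfur cluster and binds mRNA when it does not (chr4:40143265-40199009). It was the single member whose libraries with and without Dox did not overlap in CPM. Without Dox it held 59.4 CPM in Control, 62.8 CPM in Rh2-20 mg/kg and 62.7 CPM in Rh2-30 mg/kg, and with Dox 50.1 CPM in Dox, 52.9 CPM in Rh2-20 mg/kg + Dox and 54.7 CPM in Rh2-30 mg/kg + Dox. Each library with Dox was thus below all without it, which 9.16% of all genes showed in this direction. The difference was small and alike at the 3 Rh2 doses, -0.25, -0.25 and -0.20 on the log2 scale, and the fit gave -0.23 (SE 0.077). It had an unadjusted p of 0.0202 and an adjusted p of 0.403 in edgeR's quasi-likelihood test, so it did not pass. The adjusted p over 12 alternatives ran from 0.169 to 0.682, and the value from -0.20 to -0.26 when any 1 library was left out.

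Ireb2 encodes iron regulatory protein 2, which is degraded when iron is plentiful (chr9:54862658-54912534). It was the steadiest of the 9, with 151 CPM in Control, 142 CPM in Rh2-20 mg/kg, 137 CPM in Rh2-30 mg/kg, 136 CPM in Dox, 134 CPM in Rh2-20 mg/kg + Dox and 141 CPM in Rh2-30 mg/kg + Dox. The groups overlapped in CPM, and the log2 difference with Dox was -0.06 (SE 0.079), with an adjusted p of 0.834 in edgeR's quasi-likelihood test. In FPKM they did not overlap, at 17.8 to 18.5 with Dox and 19.3 to 20.2 without, and Aco1 and Ireb2 were then 2 of 9 genes lower without overlap, against 10.7% of all genes. Because regulation by iron acts on the protein of Ireb2 and on the cluster of Aco1, the mRNA levels given here do not report their binding activity.

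Abcb8 encodes a transporter of the inner mitochondrial membrane with a role in iron export from mitochondria (chr5:24393681-24412759). It held 25.1 CPM in Control, 27.1 CPM in Rh2-20 mg/kg and 24.2 CPM in Rh2-30 mg/kg, and 25.5 CPM in Dox, 21.8 CPM in Rh2-20 mg/kg + Dox and 31.2 CPM in Rh2-30 mg/kg + Dox. The highest and the lowest library both had Dox. Dox minus no Dox was 0.02, -0.31 and 0.37 on the log2 scale at the 3 Rh2 doses, and the fitted difference was 0.04 (SE 0.14), with an adjusted p of 0.947 in edgeR's quasi-likelihood test. The interval with dispersion of Dox over Control was -0.66 to 0.71, and with the larger dispersion -1.15 to 1.20, so differences within that range could not be seen with 1 library each.

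**Figure D4:**
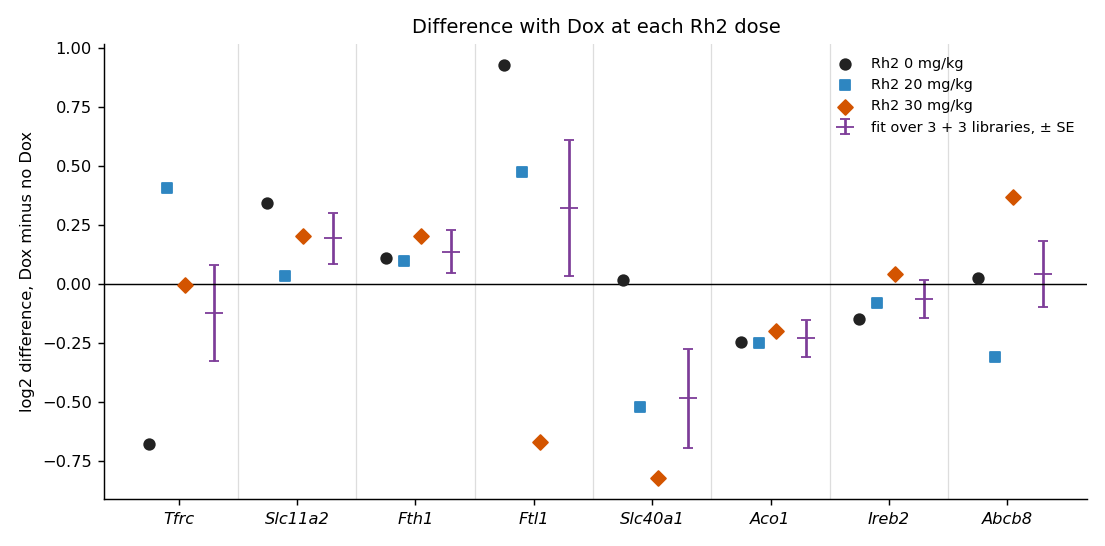
Log2 difference of Dox minus no Dox at each Rh2 dose for 8 of the 9 genes (Hamp is off this scale), with the fitted difference over 3 and 3 libraries and its SE. Aco1 lies between -0.25 and -0.20 at all 3 doses, while Tfrc, Ftl1 and Abcb8 have points on both sides of 0.

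Around the 9 genes, 92 further genes of iron uptake, storage, export, hepcidin control, iron-sulfur clusters and heme were read, 88 of which were tested. None passed after adjustment in edgeR's quasi-likelihood test in any of the 3 contrasts. For Dox, 10 were higher and 1 lower at an unadjusted p under 0.05, or 12.5% of the 88, against 10.1% of all genes, of which 4.2% were higher and 5.91% lower. The median log2 difference of the 88 was 0.08 and that of all genes -0.01. For Rh2 it was 7 higher and 3 lower, or 11.4% against 8.74% (4.09% higher and 4.65% lower), and for the interaction 2 lower, Erfe and Hp, or 2.27% against 2.71% (1.82% lower). In both directions together the shares are near the background, but by direction 11.4% of the 88 were higher and 1.14% lower with Dox, and 7.95% higher and 3.41% lower with Rh2. The lists were chosen with results of these data known, and whether they differ from other genes was not tested.

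Genes that control hepcidin held 3 of the 10 genes that were higher with Dox. Of 18 tested in that list, these 3 were higher at an unadjusted p under 0.05 and 1, Smad1, lower (-0.26, chosen after its value was seen), or 16.7% and 5.56% of the list against 4.2% and 5.91% of all genes. Bmp6, the ligand by which liver endothelium reports iron stores, held 21.3 CPM in Control, 26.9 CPM in Rh2-20 mg/kg and 32.6 CPM in Rh2-30 mg/kg, and 40.7 CPM in Dox, 41.7 CPM in Rh2-20 mg/kg + Dox and 41.2 CPM in Rh2-30 mg/kg + Dox. The 3 libraries with Dox were alike and above those without. Its fitted log2 difference was 0.61 (SE 0.15), with an adjusted p of 0.305 in edgeR's quasi-likelihood test. Smad6 and Smad7, the inhibitory Smads of the BMP pathway, were higher by 0.50 (SE 0.11, adjusted p 0.247) and 0.44 (SE 0.14, adjusted p 0.369) in the same edgeR test, with no overlap between groups in either gene, as 7.85% of all genes showed in this direction.

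Smad6 ran from 12.1 to 14.4 CPM without Dox and from 17.3 to 20.1 CPM with it, and Smad7 from 24.9 to 27.4 CPM and from 29.5 to 42.0 CPM. Both were closest to the libraries without Dox in Rh2-30 mg/kg + Dox. Endothelial markers (5 of 5 detected) summed to between 1322 and 1514 CPM, of which Cdh5 held 206 to 238 CPM with Dox and 250.2 to 270.4 CPM without, and Tie1 held 187 CPM in Dox and 150.1 CPM in Control. Their part in the values of Bmp6, Smad6 and Smad7 was not tested. Erfe, a red cell hormone that lowers hepcidin, had 0 counts in Control and 6 to 17 in the treated libraries.

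Among transporters, Abcg2, which exports heme and drugs, had the smallest p of the 88 genes with Dox. It held 102 CPM in Control, 108 CPM in Rh2-20 mg/kg and 105 CPM in Rh2-30 mg/kg, and 138 CPM in Dox, 130.5 CPM in Rh2-20 mg/kg + Dox and 149 CPM in Rh2-30 mg/kg + Dox. All libraries with Dox were above all without, as 7.85% of all genes showed in this direction. The log2 difference was 0.40 (SE 0.083), with an adjusted p of 0.235 in edgeR's quasi-likelihood test. In the list of uptake genes, none of 13 tested reached an unadjusted p under 0.05 with Dox, and Slc39a8, a zinc transporter that also carries iron, was over 2-fold from Control in 3 libraries, with 109 counts in Control but 534 counts in Rh2-30 mg/kg, 473 counts in Rh2-20 mg/kg + Dox and 262 counts in Dox. It had 113 counts in Rh2-20 mg/kg and 144 counts in Rh2-30 mg/kg + Dox, so the 3 libraries in which it was high were those with the most atrial markers (379 to 1662 CPM, against 45.7 to 75.3 CPM), whose part was not tested.

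In the list of mitochondrial iron and iron-sulfur clusters 3 of 20 genes were higher with Dox at an unadjusted p under 0.05, and in the list on control of the regulatory proteins 3 of 9, with none lower in either, against 4.2% higher and 5.91% lower of all genes. Mms19 and Ciao3, which deliver clusters in the cytosol, had log2 differences of 0.38 (SE 0.11) and 0.27 (SE 0.11), and Epas1, the hypoxia factor whose mRNA has an iron responsive element, 0.28 (SE 0.12). In mitochondria, the iron importer Slc25a28 and the cluster carriers Nfu1 and Isca1 had 0.32 (SE 0.094), 0.30 (SE 0.12) and 0.38 (SE 0.15). Isca1 was higher with Dox by 0.64 and 0.48 on the log2 scale at the Rh2 doses of 0 and 20 mg/kg and had -0.03 at 30 mg/kg, and its order among the libraries with Dox (171, 148 and 112 CPM) was that of the erythroid markers (10560, 5922 and 1660 CPM), whose part was not tested. The adjusted p-values of these 6 genes ran from 0.349 to 0.491 in edgeR's quasi-likelihood test. Slc25a37, the erythroid partner of Slc25a28, held 42.2 CPM in Control, 129 CPM in Dox and 22.7 CPM in Rh2-30 mg/kg + Dox, with the erythroid markers named above. It was named after its values were seen.

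With Rh2, the uptake list had 3 of 13 genes higher and 1 lower at an unadjusted p under 0.05, against 4.09% higher and 4.65% lower of all genes, and 12 of the 13 had a log2 difference above 0, as had 51.8% of all genes. Steap4, a metalloreductase that reduces iron before transport, held 23.4 CPM in Control and 27.9 CPM in Dox, and 33.0 to 41.0 CPM in the 4 libraries with Rh2. Steap4 thus had no overlap between groups, as 9.87% of all genes showed with Rh2 higher. Its log2 difference was 0.54 (SE 0.14), with an adjusted p of 0.567 in edgeR's quasi-likelihood test. Lcn2, which binds iron carriers of bacteria, had 0.998 (SE 0.37), with 2.49 CPM in Rh2-20 mg/kg, 5.13 CPM in Rh2-20 mg/kg + Dox and 3.52 CPM in Rh2-30 mg/kg + Dox but 1.44 CPM in Rh2-30 mg/kg, against 1.33 CPM in Control and 1.56 CPM in Dox. Scara5, a ferritin receptor, had 0.32 (SE 0.13, named after its value was seen), whereas Mcoln1, a channel that releases iron from lysosomes, had -0.24 (SE 0.069).

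Outside uptake, the ferroxidase ceruloplasmin (Cp) held 118 CPM in Control and 138 CPM in Dox, and 146 to 180.1 CPM in the 4 libraries with Rh2. Cd163, the macrophage receptor for hemoglobin bound to haptoglobin, held 55.5 CPM in Control and 48.7 CPM in Dox, and 69.7 to 104 CPM with Rh2. Neither range overlapped with the values without Rh2, as 9.87% of all genes showed with Rh2 higher. Their log2 differences were 0.35 (SE 0.10) and 0.66 (SE 0.17), both with an adjusted p of 0.567 in edgeR's quasi-likelihood test. The summed macrophage markers with Rh2 ran from 264 to 492 CPM and without it were 333 and 301 CPM, and their part in the Cd163 values was not tested. Stat3 and Hjv, both activators of hepcidin transcription, had 0.29 (SE 0.088) and 0.30 (SE 0.12), Hscb, a cluster assembly chaperone, -0.39 (SE 0.13), and Mms19 -0.21 (SE 0.084). Hjv overlapped between groups, with 15.5 CPM in Rh2-20 mg/kg + Dox and 17.7 CPM in Control. So did Mms19, with 86.1 CPM in Rh2-30 mg/kg + Dox and 72.2 CPM in Control. Haptoglobin itself (Hp) had 114 counts in Control and 203 to 1144 in the treated libraries. It was highest in Rh2-30 mg/kg (12.1 CPM), then Dox (6.88 CPM), Rh2-20 mg/kg + Dox (6.42 CPM) and the library of Rh2-20 mg/kg (5.31 CPM). The white fat markers had this order in these libraries (199, 37.1, 19.7 and 15.9 CPM). They went the other way in Rh2-30 mg/kg + Dox and Control, with 0.345 and 4.43 CPM against 2.34 and 1.37 CPM of Hp. The part of fat RNA in the Hp values was not tested.

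**Figure D5:**
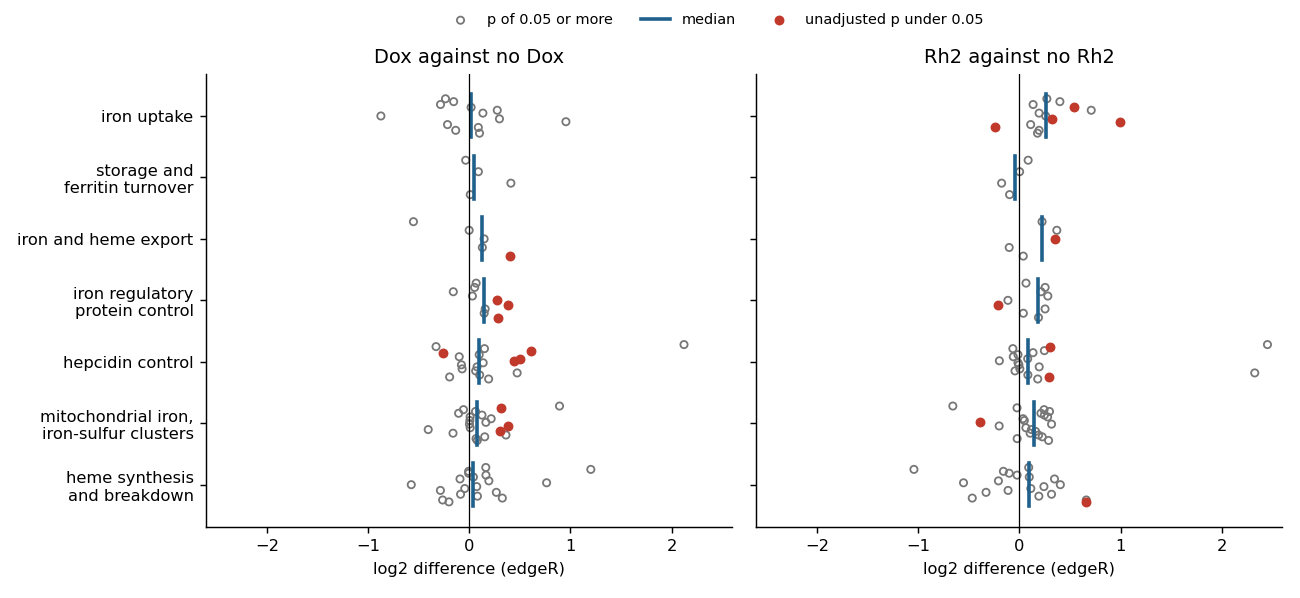
Fitted log2 difference of each tested gene in 7 lists of iron genes, for Dox against no Dox (left) and Rh2 against no Rh2 (right); filled points have an unadjusted p under 0.05 and bars are list medians. Filled points lie mostly to the right of 0, with 10 higher and 1 lower for Dox and 7 higher and 3 lower for Rh2.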

How the data were processed

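RNA of pooled hearts was captured and sequenced by the authors, and the reads were trimmed, aligned to mm10 with HISAT2 2.1.0 and quantified with StringTie 2.1.3b, as the study's methods and the submitters' processing notes give it. The authors' deposited count values are whole numbers per gene without normalization and were the basis of all tests. The authors' deposited FPKM values are scaled per kilobase and library, and were used for levels and as an alternative. The authors' deposited TPM values are scaled to 1 total in each library and were used only to check the order of levels. Reads of near copies were assigned by the authors' tools.

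Genes averaging 10 counts or more were TMM-normalized and fitted with edgeR 4.0.16 in R 4.3.3 (two-sided quasi-likelihood test, Benjamini-Hochberg adjustment over 18328 genes), as Dox against no Dox (3 against 3 libraries), Rh2 against no Rh2 with Dox as a term (4 against 2 libraries, unequal in Rh2 dose) and their interaction. Folds of single libraries used a prior count of 0.5, an exact conditional binomial 95% interval, which covers counting error only, and a wider one with a common dispersion of 0.0285, which adds about 0.67 on the log2 scale to either side. This dispersion was estimated robustly, with the 6 libraries as 1 group. Without the robust option it was 0.0864, which adds 1.18, an alternative chosen after seeing the data. DESeq2 1.42.0, limma 3.58.1 on log2(FPKM + 1) or log2(FPKM + 0.1), a prior count of 2, the size factors of DESeq2, a fit without the filter, Rh2 dose as a block and each library left out served as alternatives. The fits were also run on simulated counts, in which all genes shared a dispersion of 0.0285 and libraries of a group were true replicates. These libraries differ from that setting, so the simulation does not show how the tests perform here. Nothing in the labels says that libraries of a group are replicates of 1 condition, so the p-values measure the spread between these libraries.

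Sequences came from GENCODE M21 transcripts and gene positions from RefSeq (GRCm38.p6), in which all 9 genes were matched by identifier. Transcripts were aligned with Biopython 1.88. Figures used matplotlib 3.10.9.

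The genes named are the 9 members and, from the other iron lists, up to 3 per list and contrast with the smallest p under 0.05, genes 2-fold from Control in at least 3 libraries, and the 3 genes nearest in pattern to the 2 members with the widest range (Hamp and Ftl1). Members and lists were chosen with earlier results of these data known. Proteins, iron content and tissue sections were not analysed here.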

Additional observations from a re-analysis of the deposited data

How the results depend on the processing

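None of the 9 genes passed an adjusted p of 0.05 in any contrast under any alternative run. At an unadjusted p under 0.05, the Dox contrast held 1 of the 9 genes, 2 without a filter on low counts and 2 with DESeq2 (Aco1 and Slc40a1 in both), and 0 to 2 with a library left out. The Rh2 contrast held none, 1 (Fth1) with FPKM plus 1, and 0 to 2 with a library left out. The interaction held 1, 2 with DESeq2, and 1 to 3 with a library left out. The wider iron genes numbered 11 for Dox, 5 with FPKM plus 0.1, and 9 to 15 with a library left out, 10 for Rh2, 22 with FPKM plus 1, and 4 (without Rh2-20 mg/kg) to 16 (without Rh2-30 mg/kg) with a library left out, and 2 for the interaction, with 1 (without Rh2-30 mg/kg) to 8 (without Rh2-20 mg/kg + Dox). Members 2-fold from Control in Rh2-20 mg/kg fell from 1 to 0 in FPKM plus 1, which damps low levels by construction. With the larger dispersion, the intervals of the single-library folds of Tfrc and Slc40a1 and that of Ftl1 in Dox against Control no longer excluded 0, and those of Ftl1 in Rh2-30 mg/kg + Dox against Dox and of Hamp still did where they had.

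Several fitted values that were near 0 or rested on 1 library changed sign. Where a library was left out, the range over libraries is given. For Dox they were Tfrc (-0.26 to 0.14, the latter without Control), Abcb8 (-0.0021 and -0.0034 with FPKM plus 1 and plus 0.1, and -0.10 without Rh2-30 mg/kg + Dox to 0.16) and Hamp (1.48 with Rh2 dose as a block, and -3.18 to 3.36, the latter without Rh2-30 mg/kg). For Rh2, without Control they were Tfrc (-0.67 to 0.21), Slc40a1 (-0.046 to 0.66) and Ireb2 (-0.11 to 0.021), without Dox Ftl1 (-0.75 to 0.23) and Slc11a2 (-0.21 to 0.018), with FPKM plus 1 Slc11a2 (0.036) and Ireb2 (0.037), and without Rh2-30 mg/kg + Dox Abcb8 (-0.077 to 0.14). For the interaction they were Abcb8 (-0.058 without Rh2-30 mg/kg and -0.26 without Rh2-30 mg/kg + Dox, up to 0.26) and Hamp (-9.26 to 0.45, the latter without Rh2-30 mg/kg). The cause was not tested. The interaction could not be fitted without Control or without Dox. With Rh2 dose as a block, pairing libraries of the same dose, 1 of the 9 genes (Aco1, -0.23) and 9 wider iron genes had an unadjusted p under 0.05. Of the 18328 genes tested, 1598 did. Among the 9 genes and the wider iron genes, the block changed no call after adjustment. Replicate numbers do not pair these libraries, as each condition has 1. With 86164411 to 90621002 counts per library, depth limits Hamp alone, which had 7 to 88 counts in 4 libraries. For the others the single pool per condition is the limit.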
